A study of Arabidopsis thaliana with 18 samples.

Results

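AT1G74470 encodes geranylgeranyl reductase and AT5G08740 encodes NDC1, NAD(P)H dehydrogenase C1. Both were taken by name as genes of plastid prenylquinone supply, with earlier results of these data known. Each had 1 probe set of its own and both passed the filter on dim signals, so 2 of the 13286 genes with a probe set of their own are described here. AT1G74470 lies on chromosome 1 and NDC1 on chromosome 5 in the RefSeq annotation of TAIR10.1.

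Geranylgeranyl reductase saturates the geranylgeranyl chain to phytyl, which ends up as the tail of chlorophyll and, after salvage from chlorophyll breakdown, as the side chain of tocopherols and phylloquinone. NDC1 is a type II NAD(P)H dehydrogenase of plastids that sits in part in plastoglobules, the lipid droplets of the thylakoid, where it reduces plastoquinone and takes part in phylloquinone synthesis and in recycling tocopherol quinone. Greening seedlings build thylakoids and need both phytyl and prenylquinones in quantity. VTE2 joins phytyl to homogentisate as the first committed step of tocopherol synthesis, and VTE1 closes the chromanol ring later on, so vte1 plants lack tocopherols but keep the quinol intermediate, whereas vte2 plants lack both.

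Whole Arabidopsis thaliana seedlings of vte2-1, vte1-1 and wild type, all in the Columbia-0 background, were profiled on Affymetrix arrays at day 3 and at day 1. The days count time at 22 °C (72 or 24 h) under 12 h of light per day. Each genotype and day had 3 arrays labelled as biological replicates, 18 arrays in 6 groups. All seedlings, wild type included, had first spent 5 days at 6 °C to break dormancy, and about 100 mg of seedlings went into each extract. Each mutant was represented by 1 allele. Nothing states that replicates came from separate seed lots or plates, so p-values measure the spread between these samples. The target genes VTE1 and VTE2 were not analysed here, and so gave no check of the mutant labels.

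Values are signals from the MAS5 algorithm, given on a linear scale. Differences are on the log2(signal + 22) scale with a standard error (SE) from a limma model over all 18 arrays, and understate the change of dim probe sets. A gene was called at a Benjamini-Hochberg adjusted p under 0.05 over the 15922 probe sets tested. An exact permutation test on 3 against 3 arrays cannot go below p = 0.1, so the model carries the tests. Array medians ran from 164.1 to 180.95 at day 3 and from 121.8 to 161.25 at day 1, at a common trimmed mean of about 500.05.

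The reductase signal was highest in the day 3 groups and lowest by far in day 1 vte1 seedlings. At day 3 it read 15502, 15432 and 12566 in vte2, 23835, 17282 and 17563 in vte1, and 20504, 18344 and 21210 in wild type. At day 1 it read 8937, 6545 and 8723 in vte2, 1178, 1348 and 5118 in vte1, and 7972, 7298 and 9262 in wild type. Every day 3 array lay above every day 1 array, and every day 1 vte1 array lay below every other array.

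The group means at day 3 were 14500 ± 1675 in vte2, 19560 ± 3705 in vte1 and 20020 ± 1493 in wild type (SD, n = 3 each). In that rising order vte2 did not overlap its neighbour, while vte1 and wild type did. At day 1 the order was 2548 ± 2227 in vte1, 8069 ± 1324 in vte2 and 8177 ± 998 in wild type. Here vte1 stood apart and vte2 overlapped wild type. The large SD of day 1 vte1 came from replicate 3, at 5118, while the other 2 arrays read 1178 and 1348.

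**Figure D1:**
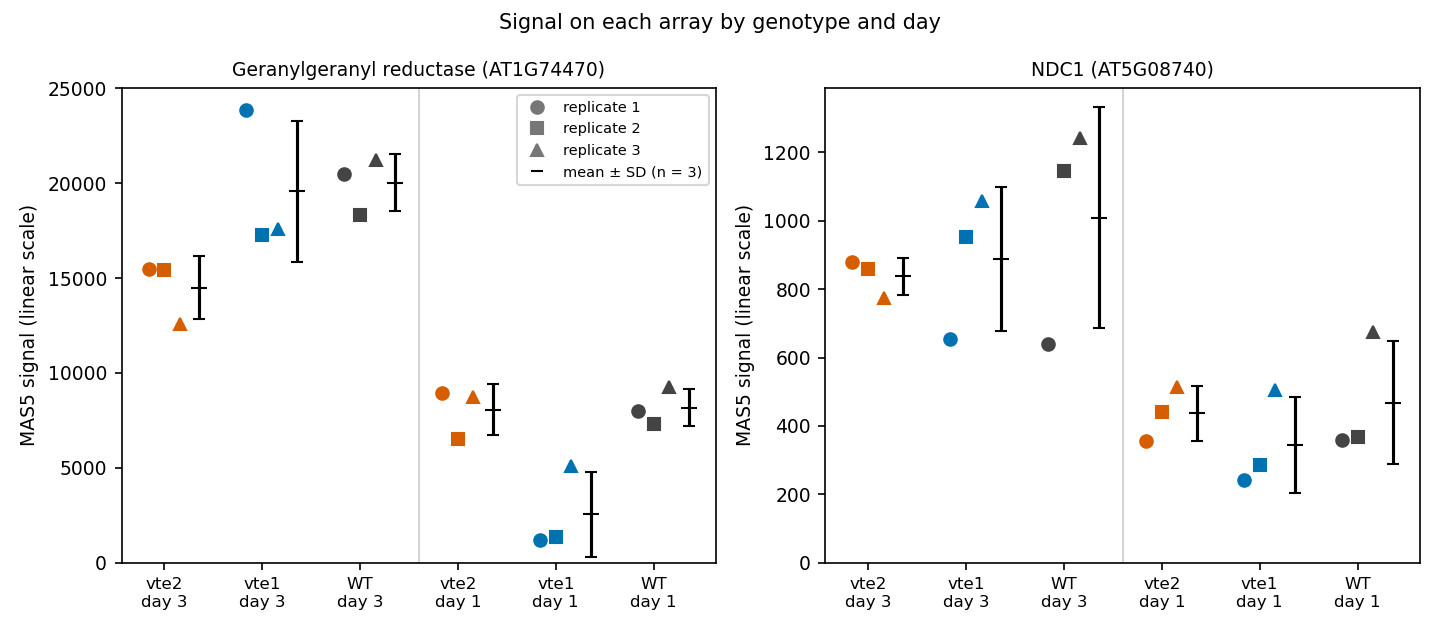
MAS5 signal (linear scale, from 0) of geranylgeranyl reductase (left) and NDC1 (right) on each of the 18 arrays, by genotype and day; marker shapes give the replicate number and bars the mean ± SD of 3 arrays. The 3 day 1 vte1 arrays hold the lowest reductase signals (1178, 1348 and 5118), while NDC1 signals of the genotypes overlap within each day.

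At day 1, the comparison of each mutant with wild type asks what tocopherol deficiency changes in the first day after imbibed seeds are warmed. The reductase was 3.21-fold lower in day 1 vte1 seedlings (2548 ± 2227) than in wild type (8177 ± 998; SD, n = 3 each). The difference was -2.00 ± 0.36 (SE, adjusted p = 0.0044, 95% interval -2.75 to -1.25) and the groups did not overlap. It was the 1 member of 2 called lower there, where 1.89% of all probe sets were called lower, 2.09% were called in either direction and 15.3% had groups that did not overlap.

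The reductase did not pass the test in vte2 at day 1. Its level was 8069 ± 1324 in vte2 and 8177 ± 998 in wild type, a difference of -0.03 with a 95% interval from -0.78 to 0.72 (adjusted p = 1). The arrays overlapped. In that comparison 0.0942% of all probe sets were called and 9.22% had groups that did not overlap. An interval of that width does not show the levels to be the same.

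Set directly against each other, the mutants differed. The reductase was 3.17-fold higher in vte2 (8069 ± 1324) than in vte1 (2548 ± 2227) at day 1, by 1.98 ± 0.36 (SE, adjusted p = 0.0023, interval 1.23 to 2.73), with no overlap. In that comparison 4.13% of all probe sets were called higher, 5.22% were called in all (831 of them, or 1256 with the replicate number as a block), and 18.9% did not overlap. The comparisons of day 1 share arrays: vte1 stands in the first and the third, wild type in the first and the second.

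Both day 1 calls held when any 1 of the 6 arrays compared was left out. Without vte1 replicate 3 the differences were -2.67 for vte1 against wild type (adjusted p = 2.2e-07) and 2.64 for vte2 against vte1 (adjusted p = 1.2e-07). That fit keeps replicate 3 of the other groups, although same-numbered arrays deviated together at day 1. Without replicate 3 of every group the limma differences were -2.58 (adjusted p = 1.3e-09) and 2.58 (adjusted p = 8.4e-10). Both calls were lost when replicate 1 or replicate 2 of all 6 groups was left out together: vte1 against wild type was then -1.64 (adjusted p = 0.51) or -1.79 (adjusted p = 0.45), and vte2 against vte1 was 1.51 (adjusted p = 0.23) or 1.83 (adjusted p = 0.17). Both were also lost with only the 6 arrays compared in the limma fit (adjusted p = 0.19 and 0.12).

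At day 3 no genotype difference of the reductase passed the test. Day 3 vte1 (19560 ± 3705) and wild type (20020 ± 1493) overlapped and differed by -0.05 (interval -0.80 to 0.70, adjusted p = 0.98, unadjusted p = 0.9). All 3 vte2 arrays at day 3 lay below all 3 wild-type arrays, at 14500 ± 1675 against 20020 ± 1493, but the difference of -0.47 had an interval from -1.22 to 0.28 (adjusted p = 0.65). They also lay below all 3 vte1 arrays (-0.42, interval -1.17 to 0.33, adjusted p = 0.66). With other processing the vte2 difference from wild type ranged from -0.52 to -0.06. Groups that do not overlap were common at day 3, with 19.8% of all probe sets in vte2 against wild type, 25.0% in vte2 against vte1 and 16.9% in vte1 against wild type. The calls there were 2.34%, 3.52% and 0.301% of probe sets in the same order, and neither member was among them.

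Between the days, the reductase rose in vte1 and in wild type. In vte1 seedlings it stood at 19560 ± 3705 at day 3 and 2548 ± 2227 at day 1, 7.68-fold higher at day 3 (3.25 ± 0.36, adjusted p = 4.5e-07). In wild type it stood at 20020 ± 1493 at day 3 and 8177 ± 998 at day 1, 2.45-fold higher (1.29 ± 0.36, adjusted p = 0.0059). In vte2 it stood at 14500 ± 1675 at day 3 and 8069 ± 1324 at day 1. That was 1.80-fold higher with no overlap, but the difference of 0.85 ± 0.36 did not pass (adjusted p = 0.065, interval 0.10 to 1.60). In all 3 genotypes the days did not overlap, as was the case for 58.6% of all probe sets in vte1, 51.8% in vte2 and 55.2% in wild type.

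The vte2 value lies close to the threshold. It passed with quantile normalization (1.13, adjusted p = 0.013), with only the 6 vte2 arrays in the fit (0.85, adjusted p = 0.0053) and without replicate 3 of every group (1.01, adjusted p = 4.9e-05). Calls between the days were frequent in general. In vte1 53.3% of all probe sets were called, 30% higher and 23.4% lower at day 3. In vte2 40.2% were called (21.7% higher and 18.5% lower) and in wild type 47.4% (24.6% higher and 22.8% lower).

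Whether the change differed between genotypes was tested as a difference of differences. The change of the reductase from day to day was smaller in vte2 than in vte1 by 2.40 ± 0.51 on the log2 scale (-2.40, adjusted p = 0.0089, interval -3.46 to -1.34), where 3.84% of all probe sets were called lower and 5.29% were called in all (842, or between 2 and 3154 with a replicate of every group or an array left out). Without vte1 day 1 replicate 3 that value was -3.07 (adjusted p = 2e-06). It lost its call when replicate 1 (-1.84, adjusted p = 0.35) or replicate 2 (-2.38, adjusted p = 0.28) of every group was left out.

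The rise in vte1 against the rise in wild type differed by 1.96 ± 0.51 (interval 0.90 to 3.01) and missed the threshold (adjusted p = 0.069, unadjusted p = 0.0011), where 1.06% of all probe sets were called (168, or between 0 and 2142 with arrays left out). It passed without vte1 day 1 replicate 3 (2.62, adjusted p = 2.9e-05) and without replicate 3 of every group (2.64, adjusted p = 2e-07). The change in vte2 against that in wild type differed by -0.44 (adjusted p = 0.97), where 0.201% of probe sets were called.

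**Figure D2:**
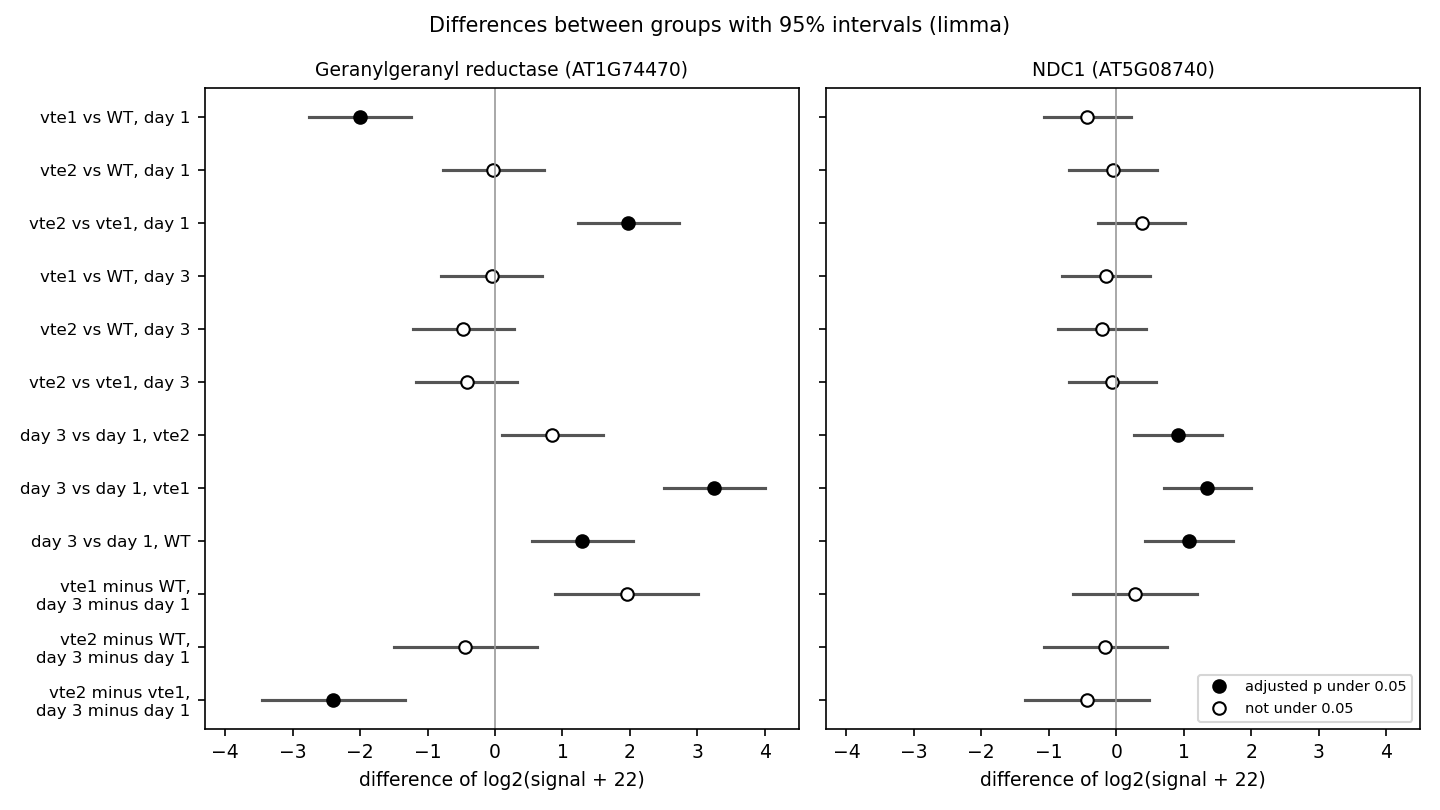
Differences of log2(signal + 22) with their 95% intervals from limma for the reductase (left) and NDC1 (right), for the 6 genotype comparisons, the 3 day comparisons and the 3 differences between genotypes in the change from day to day; filled points have an adjusted p under 0.05. The reductase is called in 5 of 12 comparisons and NDC1 only in the 3 day comparisons.

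NDC1 was higher at day 3 than at day 1 in each genotype. At day 3 it read 878.6, 858.5 and 774.9 in vte2, 654.4, 953.5 and 1059 in vte1, and 640.3, 1146 and 1241 in wild type. At day 1 it read 355.6, 440.2 and 515.1 in vte2, 240.8, 287.0 and 504.9 in vte1, and 360.4, 367.1 and 675.5 in wild type. The days did not overlap in either mutant. In wild type they did, since replicate 1 at day 3 (640.3) read less than replicate 3 at day 1 (675.5).

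The NDC1 means at day 3 were 837.3 ± 54.99 in vte2, 888.9 ± 209.8 in vte1 and 1009 ± 322.9 in wild type (SD, n = 3 each), in rising order with overlap between neighbours. At day 1 the rising order was 344.2 ± 141.1 in vte1, 437.0 ± 79.8 in vte2 and 467.7 ± 180.0 in wild type, again with overlap between neighbours. The single gap without overlap in the order of the 6 means lay between vte2 at day 3 and wild type at day 1.

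The rise of NDC1 to day 3 was 2.58-fold in vte1 (1.35 ± 0.31, adjusted p = 0.0011), 1.92-fold in vte2 (0.92 ± 0.31, adjusted p = 0.024) and 2.16-fold in wild type (1.08 ± 0.31, adjusted p = 0.0075). In vte2 the call was lost when 1 array was left out in 4 cases: day 1 replicate 1 (0.78, adjusted p = 0.097), day 1 replicate 2 (0.93, adjusted p = 0.055), day 3 replicate 1 (0.88, adjusted p = 0.063) and day 3 replicate 2 (0.90, adjusted p = 0.059). It was also lost without replicate 1 (0.75, adjusted p = 0.16) or replicate 2 (0.91, adjusted p = 0.19) of every group. Without replicate 2 of every group the vte1 rise was 1.20 (adjusted p = 0.06) and the wild-type rise 0.82 (adjusted p = 0.2).

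No genotype difference of NDC1 passed the test on either day. At day 1 vte1 stood at 344.2 ± 141.1 and wild type at 467.7 ± 180.0, a difference of -0.43 (interval -1.07 to 0.22, adjusted p = 0.69). For vte2 against wild type at day 1 it was -0.05 (interval -0.70 to 0.60, adjusted p = 1), and for vte2 against vte1 it was 0.38 (interval -0.27 to 1.03, adjusted p = 0.6). At day 3 the 3 differences lay between -0.21 and -0.06, with adjusted p from 0.87 to 0.97. The rise did not differ between genotypes past the threshold either, at 0.28 for vte1 against wild type (adjusted p = 0.87), -0.16 for vte2 against wild type (adjusted p = 0.99) and -0.44 for vte2 against vte1 (adjusted p = 0.66).

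In whole seedlings fewer cells of a type and less RNA per cell cannot be told apart, so markers of other tissues and of greening were read on the same arrays. At day 1 the 8 measured genes of a photosystem and Rubisco list (of 42 listed) summed to between 38835 and 43363 in vte2, to 14115, 15021 and 25261 in vte1 and to between 29768 and 32566 in wild type. The 7 measured seed and embryo markers (of 19 listed), among them the late embryogenesis abundant gene LEA4-5, summed to between 1693 and 2463 in vte2, to 25404, 29802 and 6967 in vte1 and to between 461.4 and 5076 in wild type. On the 3 vte1 arrays the photosystem sum and the reductase signal were highest, and the seed sum lowest, in replicate 3.

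Of the 8 photosystem genes, 3 were lower in vte1 than in wild type at day 1 (median -0.88), where 1.89% of all probe sets were called lower. Without vte1 replicate 3 the count was 5 (median -1.41), with no share over all probe sets given for that fit. Against vte1, 6 were higher in vte2 (median 1.35, 4.13% of all probe sets called higher), and none was called in vte2 against wild type (limma, 0.0942% of all probe sets called). PSAN, a photosystem I subunit, differed by -1.57 (adjusted p = 0.014) in vte1 against wild type. Of the 7 seed markers, 4 were higher in vte1 than in wild type (median 2.74), where 0.201% of all probe sets were called higher. Of the 4 measured root and root hair markers (of 8 listed), 3 were lower in vte1 than in wild type (median -3.23). Their sums at day 1 were 1671, 1939 and 17251 in vte2, 68.9, 128.1 and 1041 in vte1, and between 2530 and 3687 in wild type. The 2 measured endosperm markers (of 6 listed), EXPB1 and GH9C1, summed to between 439.7 and 1987 in vte2, between 157.1 and 374.1 in vte1 and between 440.6 and 932.3 in wild type. No marker had a mean of 0 in any day 1 group, and the lowest single mean was 49.2, of an endosperm marker in vte1. In day 1 vte1 every seed sum was higher, and every photosystem, root and endosperm sum lower, than in the other genotypes. Of the 2 endosperm markers 1 was called lower in vte1 than in wild type, GH9C1 (-2.69), while EXPB1 overlapped wild type. In day 1 vte2 GH9C1 read 177.9, 174.9 and 1754, far highest in replicate 3 like the root sum. EXPB1 read 261.8, 284.6 and 232.3 in day 1 vte2, lowest in replicate 3. Whether the endosperm sum reads a separate tissue was not tested. The marker sums set day 1 vte1 apart, as the reductase did, and their part in its difference was not tested. In wild type and vte2 not every sum followed the reductase array by array. Wild-type replicate 3 had the lowest photosystem sum (29768) and the highest reductase signal (9262). The same array had the lowest seed sum in wild type (461.4, against 4908 and 5076) and the highest root sum (3687). The seed sum was lowest in replicate 3 of vte2 (1693) and of vte1 (6967) as well. In vte2, replicate 3 had the highest root sum (17251), with a reductase signal (8723) within the range of the other arrays.

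At day 3 the seed sums were lower, at 410.1 to 511.2 in vte2, 513.2 to 1932 in vte1 and 546.1 to 1369 in wild type. The photosystem sums were 156725 to 193876 in vte2, 184378 to 250431 in vte1 and 264937 to 361150 in wild type. All 8 photosystem genes were called higher at day 3 than at day 1 in each genotype, with a median of 1.93 in vte2, 3.84 in vte1 and 3.25 in wild type. Of all probe sets 21.7% were called higher in vte2, 30% in vte1 and 24.6% in wild type. The part of greening in the rises of the reductase and NDC1 was not tested. Within day 3, 2 of the 8 were called lower in vte2 than in wild type (0.590% of all probe sets called lower), with a median of -0.73, or -0.14 with quantile normalization.

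A further mark of the arrays was the ratio of 3′ to 5′ GAPDH signal, a reading of RNA integrity, which was lowest in replicate 3 of every group. On the log2 scale it was -0.23 in vte2, -0.129 in vte1 and -0.621 in wild type for that replicate at day 1. Replicates 1 and 2 read 0.957 and 0.243 in vte2, 1.129 and 0.558 in vte1, and 0.83 and 0.562 in wild type. The same ratio for actin was much higher, from 4.08 to 5.356 on the day 1 arrays, and was also lowest in replicate 3 of every group. The part of RNA integrity in the spread between replicates was not tested.

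**Figure D3:**
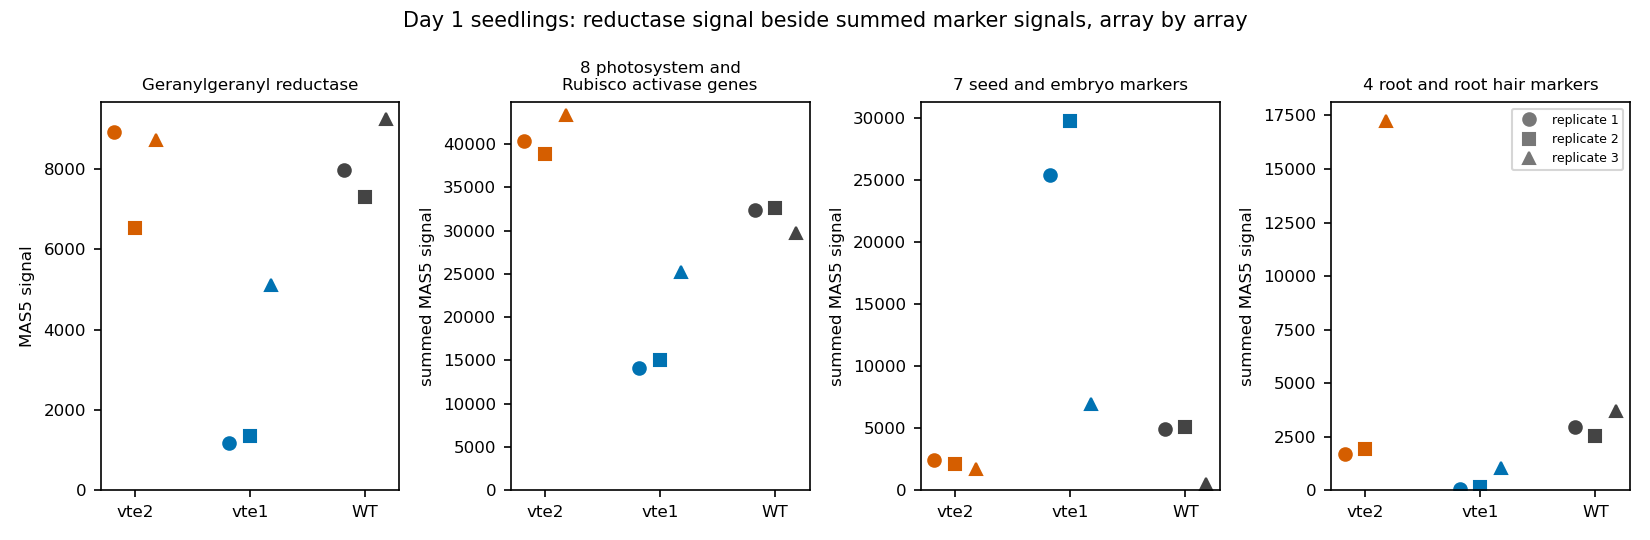
Day 1 arrays: reductase signal beside the summed signals of 8 photosystem and Rubisco list genes, 7 seed and embryo markers and 4 root and root hair markers, by genotype, with marker shapes for the replicate (linear axes from 0). In vte1, replicate 3 is the highest array for the reductase (5118), the photosystem sum (25261) and the root sum (1041) and the lowest for the seed sum (6967).

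The remaining genes of chlorophyll, carotenoid, prenylquinone and plastoglobule pathways gave 35 measured genes of 128 listed, of which 33 passed the filter. In vte1 against wild type at day 1, 1 of the 33 was called lower, near the share of 1.89% of all probe sets, with a median of -0.27 beside -0.004 for all probe sets. In vte2 against vte1 at day 1, 4 were called higher, where 4.13% of all probe sets were (median 0.37 beside 0.02 for all probe sets). In vte2 against wild type at day 1 none was called by limma, where 0.0942% of all probe sets were (1 at an unadjusted p under 0.05). At day 3 none was called in any genotype comparison. The shares of all probe sets called there were 0.301% in vte1 against wild type, 2.34% in vte2 against wild type and 3.52% in vte2 against vte1. At an unadjusted p under 0.05 there were 2, 8 and 4 in the same order. No share of all probe sets is given at that threshold, so these counts do not set the pathway apart.

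Between the days 19 of the 33 were called higher and 1 lower in vte1 (30% and 23.4% of all probe sets), 8 higher and 4 lower in vte2 (21.7% and 18.5%), and 16 higher and 3 lower in wild type (24.6% and 22.8%). Their medians were 0.80, 0.26 and 0.60 beside 0.14, 0.06 and 0.08 for all probe sets. The median over all probe sets itself turns with the scaling in the day comparisons, to between -0.10 and -0.09 with quantile normalization and between -0.26 and -0.18 with median centring. The reductase and NDC1 kept a positive difference under both scalings in all 3 genotypes, at 0.60 or more.

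Phytyl supply and salvage had 4 measured genes of 11. LIL3:1 and LIL3:2 are light-harvesting-like proteins that hold geranylgeranyl reductase at the thylakoid membrane. At day 1 LIL3:1 read 2278, 2604 and 1989 in vte2, 1012, 922.1 and 1662 in vte1, and 2153, 2146 and 1685 in wild type. The 3 vte1 arrays lay below all others. It was higher in vte2 than in vte1 (0.96 ± 0.28, adjusted p = 0.048), while vte1 against wild type did not pass (-0.76 ± 0.28, adjusted p = 0.23). Without vte1 day 1 replicate 3, vte1 was lower than wild type (-1.02, adjusted p = 0.03).

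LIL3:1 rose to day 3 in vte1 (1.46, adjusted p = 0.0002) and in wild type (0.89, adjusted p = 0.012), and stood at 2267 ± 736 at day 3 and 2290 ± 308 at day 1 in vte2 (-0.07, adjusted p = 0.87). Its change was smaller in vte2 than in vte1 (-1.52 ± 0.39, adjusted p = 0.028), as for the reductase. LIL3:2 rose in vte1 (0.72, adjusted p = 0.014), gave -0.03 in vte2 (adjusted p = 0.94) and 0.50 in wild type (adjusted p = 0.084), and its change did not differ between vte2 and vte1 past the threshold (-0.74, adjusted p = 0.21). AT1G78620, the remaining gene of the list, passed in no comparison, with day differences of -0.10 in vte1, -0.09 in vte2 and 0.14 in wild type.

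Chlorophyll synthesis consumes most of the phytyl, and 9 of its 10 measured genes (of 28 listed) passed the filter. CHLM, the methyltransferase of magnesium protoporphyrin, was the 1 gene of the 33 called in vte1 against wild type at day 1. It read 5343, 3949 and 3228 in vte2, 2087, 1916 and 2974 in vte1, and 5457, 4554 and 3597 in wild type, with the vte1 arrays below all others. The vte1 difference from wild type was -0.96 ± 0.24 (adjusted p = 0.036), a call that held in 9 of 19 alternatives. CHLM was higher in vte2 than in vte1 (0.83, adjusted p = 0.046), as was HEME2, a uroporphyrinogen decarboxylase (0.84, adjusted p = 0.029). Of 19 alternatives the vte2 against vte1 call held in 8 for CHLM, 10 for HEME2 and 6 for LIL3:1.

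PORB, a light-dependent protochlorophyllide oxidoreductase of greening seedlings, varied widely among the vte1 arrays. At day 1 it read 9897, 11181 and 6965 in vte2, 655.0, 778.2 and 5530 in vte1, and 10677, 8648 and 8530 in wild type. All 3 vte1 arrays lay below the other genotypes, with replicate 3 nearest to them, as for the reductase. It was higher in vte2 than in vte1 (2.67 ± 0.74, adjusted p = 0.04), and vte1 against wild type missed the threshold (-2.68 ± 0.74, adjusted p = 0.07). The call held in 9 of 19 alternatives. Unlike the reductase, PORB was not called between the days in any genotype, with differences of -0.27 in vte1, -1.52 in vte2 and -1.14 in wild type (adjusted p from 0.11 to 0.78).

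Without vte1 day 1 replicate 3, 5 of the 9 chlorophyll genes were called lower in vte1 than in wild type. These were PORB (-3.65), CHLI2, a magnesium chelatase subunit (-1.45), CHLM (-1.15), HEME2 (-0.95) and HEMB1, aminolevulinate dehydratase (-0.67). Across the 33 genes 1 was then called higher and 6 lower in vte1 against wild type, beside 0 and 1 with all arrays, and 6 higher in vte2 against vte1, beside 4. Replicate 3 of the other groups stayed in that fit. Calls over all probe sets also moved with arrays left out, from 0 to 2148 and from 49 to 2923 in these comparisons. The share of all probe sets in that fit is not given, so these counts do not show a rise particular to the pathway.

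By day 3, CHLM had risen in all 3 genotypes, by 2.06 in vte1, 1.00 in vte2 and 1.27 in wild type (adjusted p from 7.1e-07 to 0.0023). HEME1, another uroporphyrinogen decarboxylase, rose by 1.53 in vte1 and 1.46 in wild type and did not pass in vte2 (0.59). HEME2 rose by 1.37 in vte1 and 0.77 in wild type and did not pass in vte2 (0.26). The change of HEME2 was smaller in vte2 than in vte1 (-1.11 ± 0.31, adjusted p = 0.042). GSA1, which forms aminolevulinate early in the pathway, fell by 0.97 in vte2 and by 0.77 in wild type (adjusted p = 0.0032 and 0.013). NOL, a chlorophyll b reductase and the 1 measured gene of chlorophyll turnover, rose in vte1 (1.22) and wild type (0.92) and did not pass in vte2 (0.37).

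LIL3:1 and HEME2 were the 2 of the 33 genes whose change differed between vte2 and vte1, both lower, where 3.84% of all probe sets were called lower, a share near theirs. Their calls held in 15 and 9 of 25 alternatives. Without vte1 day 1 replicate 3 there were 8, with lower values in vte2 in each case. Over all probe sets the count in that comparison ran from 2 to 3154 with arrays left out. In the change from day to day, none of the 33 genes differed between either mutant and wild type by limma. Of all probe sets 1.06% were called in that comparison for vte1 and 0.201% for vte2. At an unadjusted p under 0.05 there were 5 of the 33 for vte1 and 3 for vte2, with no share of all probe sets given at that threshold. Without vte1 day 1 replicate 3 the change of 2 genes differed between vte1 and wild type, CHLI2 (1.27) and AT5G36160 (-1.51). Over all probe sets the count for vte1 minus wild type ran from 0 to 2142 with arrays left out. The share of all probe sets called without that array is not given, so the counts of 8 and 2 do not set the pathway apart.

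Of the carotenoid pathway, which shares the geranylgeranyl precursor, 2 of 15 genes were measured. LYC, a lycopene cyclase, rose by 1.10 in vte1 and by 1.10 in wild type and did not pass in vte2 (0.51). Z-ISO, the zeta-carotene isomerase, rose in vte1 (0.77, adjusted p = 0.016). The 13 genes listed for the plastid isoprenoid precursor pathway were not analysed here.

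Among the genes that build the quinones, 1 of 8 on the tocopherol list was measured, AT5G36160. It read 296.8, 353.4 and 453.0 in day 1 vte2, 517.5, 456.5 and 186.4 in day 1 vte1, and 89.1, 186.6 and 203.6 in day 1 wild type. The vte2 arrays all lay above wild type, and 1 vte1 array fell within the wild-type range. Neither difference passed the test (1.15 in vte2, adjusted p = 0.45, and 1.12 in vte1, adjusted p = 0.094). Without vte1 replicate 3 the vte1 difference passed (1.55, adjusted p = 0.002). The gene rose to day 3 by 1.87 in vte1, 2.02 in vte2 and 2.95 in wild type (adjusted p from 6.7e-07 to 8.7e-05).

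AT5G34930 and AT1G15710, on the list for tyrosine and homogentisate supply, passed only between the days and downwards, AT5G34930 in vte2 (-0.94, adjusted p = 0.016) and AT1G15710 in wild type (-0.86, adjusted p = 0.02). PHYLLO and MENG, which act early and late in phylloquinone synthesis, passed in none of the 12 comparisons, nor did either reach an unadjusted p under 0.05. NDC1 was the 1 measured gene of 7 on the plastoquinone list.

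NDC1 belongs to the type II dehydrogenases, of which 4 others were measured. NDB3, a mitochondrial member of the family, fell to day 3 in every genotype. It read 76.4, 119.2 and 221.4 at day 3 and 2068, 1528 and 1020 at day 1 in vte2, 55.7, 121.2 and 276.9 at day 3 and 2293, 2068 and 4340 at day 1 in vte1, and 241.7, 73.9 and 314.5 at day 3 and 1249, 1396 and 3369 at day 1 in wild type. No day 3 array reached a day 1 array. The differences were -3.32 in vte2, -4.21 in vte1 and -3.16 in wild type (adjusted p from 1.9e-06 to 6.5e-05), and its genotype differences did not pass on either day. NDB1 and NDB2, also mitochondrial, passed in no comparison, and NDB4 was too dim to be tested, at 57.9 or less on every array.

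Plastoglobules were the best covered compartment, with 11 of 18 genes measured and tested, NDC1 among them. With NDC1 counted, 10 of 11 rose to day 3 in vte1 (30% of all probe sets called higher), 7 rose and 1 fell in vte2 (21.7% higher and 18.5% lower), and 10 rose in wild type (24.6% higher). The medians were 1.35 in vte1, 0.85 in vte2 and 1.14 in wild type, and those of the 10 genes without NDC1 were 1.39, 0.70 and 1.15. NDC1 rose by 1.35, 0.92 and 1.08 in the same order, to be set beside the medians without it. The vte1 median of 1.35 with NDC1 counted is the NDC1 value itself.

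The plastoglobule genes differed among themselves. AT5G05200 rose by 1.69 in vte2, 1.57 in vte1 and 2.37 in wild type (adjusted p from 6.9e-07 to 5.6e-05). AT3G24190 rose by 1.12 in vte2, 2.34 in vte1 and 1.42 in wild type (adjusted p from 3.6e-07 to 0.0016). PGL34, a plastoglobulin that coats the droplet, rose by 0.76 in vte1 and 0.78 in wild type and did not pass in vte2 (0.41). AT2G42130 was the exception, at -0.29 in vte1, -0.75 in vte2 (adjusted p = 0.045) and -0.23 in wild type. No plastoglobule gene was called by limma in any genotype comparison within a day. At an unadjusted p under 0.05 there were 1 in vte1 against wild type at day 1, 3 in vte2 against wild type at day 3 and 2 in vte2 against vte1 at day 3. No share of all probe sets is given at that threshold.

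**Figure D4:**
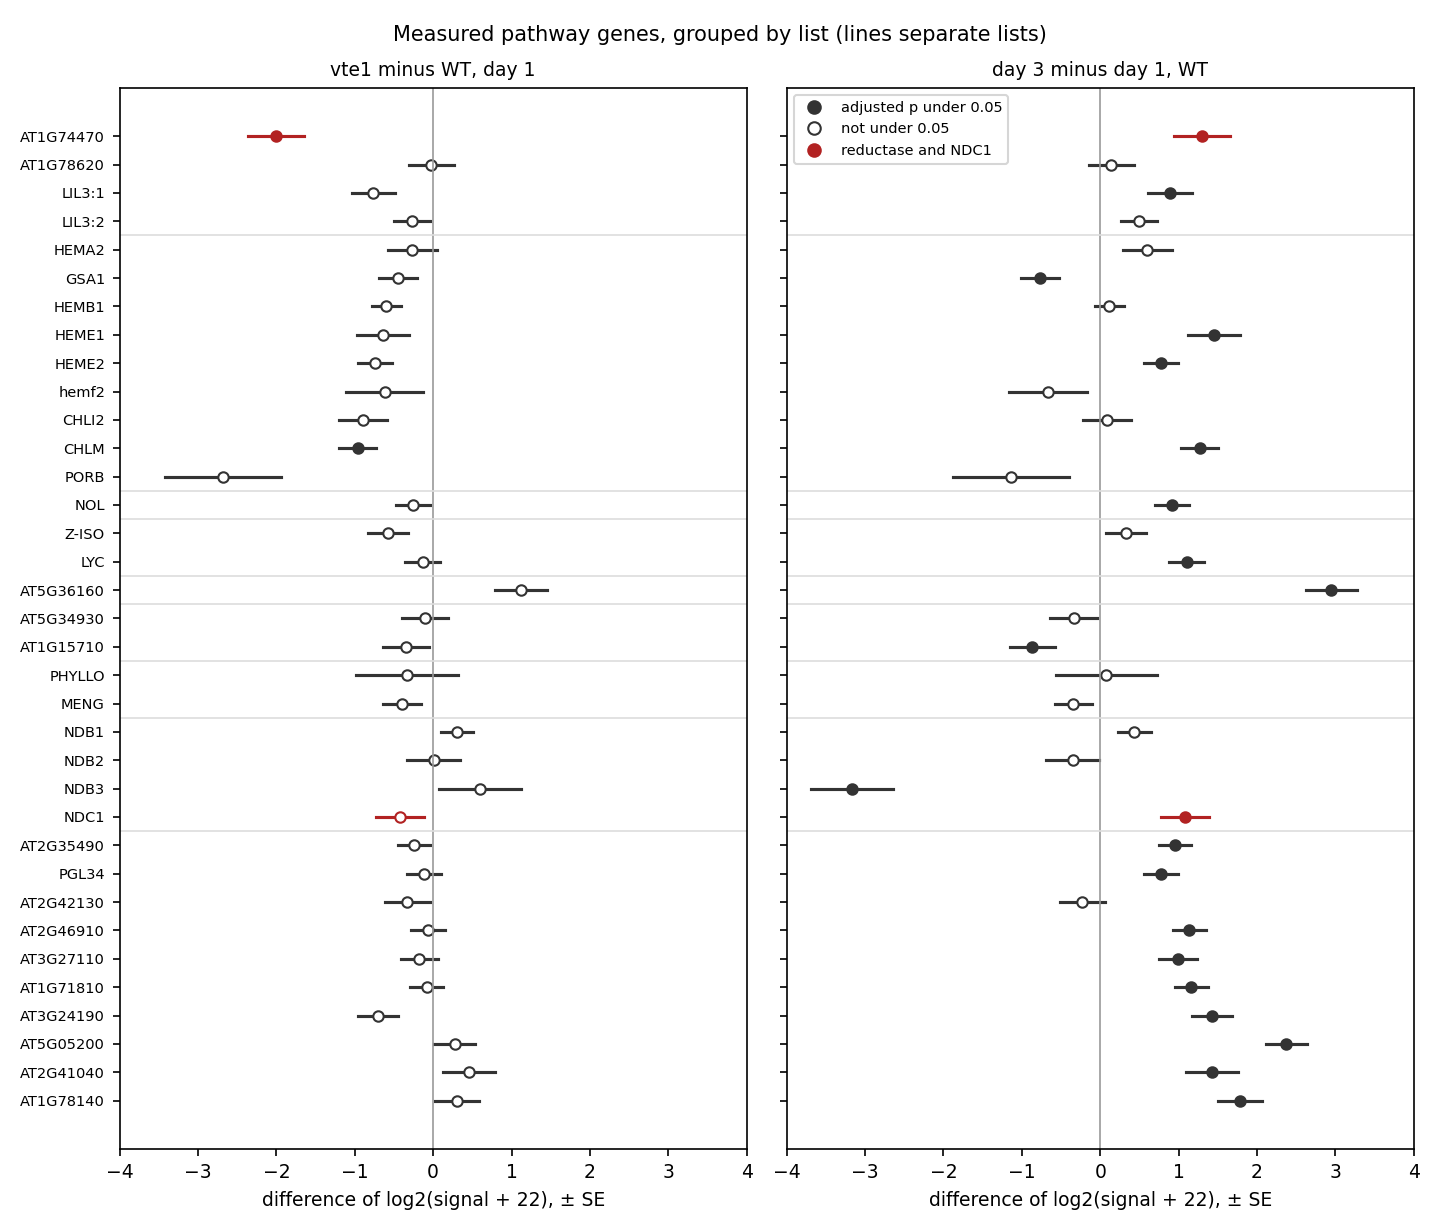
Differences of log2(signal + 22) ± SE for the 2 members (red) and the 33 other tested pathway genes, grouped by list, in vte1 minus wild type at day 1 (left) and day 3 minus day 1 in wild type (right); filled points have an adjusted p under 0.05. On the left the reductase and CHLM are the filled points; on the right most plastoglobule genes rise together with NDC1, and NDB3 falls (-3.16).

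The genes whose log2 values over the 18 arrays followed each member most closely were ranked by Pearson correlation among 8675 named genes. This is a description without a test, since all genes share the arrays and most of the variation lies between the days. Over the 18 arrays the 6 nearest to the reductase were AT1G29670 (r = 0.967), HCF101 (0.965), AT1G32470 (0.965), AT5G44020 (0.965), AT5G55620 (0.956) and AT3G05920 (0.953). Over the 6 group means their correlations were 0.974 to 0.994, and over the deviations from the group means they were 0.671 to 0.919.

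HCF101, a plastid protein needed for photosystem I iron-sulfur clusters, had the highest correlation of these 6 within groups (0.919 over deviations). Its mean signal was 662 ± 323 in day 1 vte1, against 1021 ± 94.5 in day 1 vte2 and 1075 ± 237 in day 1 wild type. At day 3 it was 1545 ± 112 in vte2, 1917 ± 214 in vte1 and 2142 ± 166 in wild type, the order seen for the reductase. AT3G05920 had the closest group means (0.994), at 33.7 ± 43.8 in day 1 vte1 against 226.4 ± 126.3 in day 1 vte2 and 227.5 ± 59.4 in day 1 wild type.

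For NDC1, 3 of the 6 nearest genes are encoded in the plastid genome: psbH (r = 0.954) and psbB (0.944) of photosystem II, and psaA (0.942) of photosystem I. The others were AT3G48200 (0.945), AT2G44870 (0.944) and AT1G19000 (0.942). The deviations within groups correlated at 0.781 to 0.878, and NDC1 itself read highest in replicate 3 of every day 1 group. By Spearman correlation psbB ranked 40th and psaA 26th. The share of plastid-encoded genes among all ranked genes was not counted. For psbH the mean was 6823 ± 171 in day 3 vte2, 7720 ± 3417 in day 3 vte1 and 9988 ± 5382 in day 3 wild type. At day 1 it was 2053 ± 1642 in vte2, 1118 ± 1382 in vte1 and 1442 ± 1426 in wild type, so its spread between replicates was wide, as for NDC1 in wild type.

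The members themselves correlated at r = 0.83 over the 18 arrays, 0.919 over the 6 group means and 0.478 over deviations within groups. NDC1 ranked 366th among the genes most like the reductase, and the reductase 676th among those most like NDC1. Each member had nearer genes in the other lists, such as HEME2 and CHLM for the reductase (r = 0.933 and 0.909) and HEME1 for NDC1 (0.911). Ranked by Spearman correlation instead, 1 of the 6 nearest genes was shared for each member.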

How the data were processed

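The deposited intensities, 1 per probe set and array on a linear scale, were made by the authors using the MAS5 algorithm according to the submitters' processing notes. The table held 22810 probe sets. Tested on the values, each array's mean without the top and bottom 2% was 500.05 to 500.06, a global scaling to 1 target. No scanner files were used.

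The 64 control probe sets were left out. A pseudocount of 22 (the 20th percentile of all signals) was added, log2 taken, and probe sets with a mean above the 30th percentile kept, 15922 of 22746. limma 3.58.1 in R 4.3.3 (lmFit, contrasts.fit, eBayes with trend) was fitted to all 18 arrays with a mean per genotype and day, and p-values were adjusted by Benjamini-Hochberg within each of the 12 comparisons. The fit was tested on simulated data. The number of arrays limits the precision.

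Probe sets were named from the platform annotation: 13513 had 1 gene, 503 several and 8730 none, and 13436 of the first matched a RefSeq locus (TAIR10.1). Genes came from 15 lists of 205 loci, of which 58 were measured and 56 tested. The members and lists were chosen with earlier results of these data known. Both members are given in full. Any measured pathway gene could be named, at most 3 genes of each of the photosystem, seed, endosperm and root lists, and the 6 genes most correlated with each member.

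Same-numbered arrays deviated together at day 1 (lowest correlation of deviations 0.254) and in vte2 and wild type at day 3 (0.15). The lowest correlation was -0.008 in vte1 against wild type and 0.033 in vte1 against vte2 at day 3. Between the days the lowest of each pair of groups ran from -0.004 to 0.089. Replicate 3 arrays correlated at 0.027 to 0.196 between the days, and at 0.127 in vte1 against vte2 at day 3. The replicate number as a block was an alternative. Others changed the pseudocount, the filter, the normalization, the arrays fitted or the trend, or left out arrays.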

Additional observations from a re-analysis of the deposited data

Results flagged for a closer look

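The change of the geranylgeranyl reductase from day 1 to day 3 differed between the mutants, by a test of the difference itself. The vte2 change minus the vte1 change was -2.40 ± 0.51 on the log2(signal + 22) scale (limma, adjusted p = 0.0089). The change from day to day was 0.85 in vte2, which did not pass (adjusted p = 0.065), and 3.25 in vte1 (adjusted p = 4.5e-07). All 3 arrays of both mutants were higher at day 3 than any of their day 1 arrays, and the groups stood 1.98 apart at day 1 (vte2 above vte1) and -0.42 apart at day 3. Seed markers were at 6967 to 29802 in summed signal in day 1 vte1 and at 1693 to 2463 in day 1 vte2, and their part in the result was not tested.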

How the results depend on the processing

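Values are differences of log2(signal + 22) with limma's adjusted p. No paired comparison changed a member's call with the replicate block. With that block, and samples that share only a number between the days, the reductase passed between the days in vte2 (0.85, adjusted p = 0.046) and in the change of vte1 minus wild type (1.96, adjusted p = 0.034, or 0.011 with a block within each day, an alternative chosen after seeing the data, also 1.96). Quantile normalization also brought both past the threshold (1.13 and 2.13) and turned the reductase in vte1 against wild type at day 3 to 0.18 (adjusted p = 0.92). With only the arrays compared in the fit, the reductase lost its day 1 calls in vte1 against wild type (-2.00, adjusted p = 0.19) and vte2 against vte1 (1.98, adjusted p = 0.12). With the same setting it gained the call between the days in vte2 (0.85), and the cause of these shifts was not tested. Median centring ended the NDC1 call between the days in vte2 (0.67, adjusted p = 0.065).

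With arrays or replicates left out, the reductase ranged at day 1 from -2.67 to -1.62 in vte1 against wild type, -0.12 to 0.12 in vte2 against wild type and 1.51 to 2.64 in vte2 against vte1. At day 3 it ranged from -0.20 to 0.07 in vte1 against wild type, -0.58 to -0.33 in vte2 against wild type and -0.55 to -0.27 in vte2 against vte1. Under the other alternatives, quantile normalization among them, the day 3 reductase ranged from -0.52 to -0.06 in vte2 against wild type. In vte2 against vte1 it then ranged from -0.42 to -0.24. Between the days it ranged from 0.66 to 1.01 in vte2, 2.72 to 3.99 in vte1 and 1.22 to 1.39 in wild type, and was lost in wild type without replicate 1 (1.26, adjusted p = 0.059) or replicate 2 (1.28, adjusted p = 0.074) of every group. The changes ranged from 1.46 to 2.64 for vte1 minus wild type, -0.62 to -0.33 for vte2 minus wild type and -3.07 to -1.84 for vte2 minus vte1.

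NDC1 ranged at day 1 from -0.72 to -0.14 in vte1 against wild type, -0.20 to 0.24 in vte2 against wild type and 0.17 to 0.67 in vte2 against vte1, and at day 3 from -0.44 to 0.05, -0.54 to 0.02 and -0.29 to 0.13 in the same comparisons. Between the days it ranged from 0.75 to 1.09 in vte2, 1.15 to 1.65 in vte1 and 0.82 to 1.37 in wild type. Its changes ranged from -0.02 to 0.57 for vte1 minus wild type, -0.47 to 0.09 for vte2 minus wild type and -0.73 to -0.23 for vte2 minus vte1. Where a sign turned, neither value was called.

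Counts over all probe sets moved by more than 1.5 times. Without a replicate they ran from 0 to 2148 in vte1 against wild type at day 1 (333 with all arrays) and from 49 to 2923 in vte2 against vte1 (831). Under the other alternatives they ran from 17 to 754 and from 102 to 1709. With the replicate block the count for the change of vte2 minus vte1 was 1285 (842 without it), and for vte1 minus wild type 372 (168 without it); among the 33 other pathway genes, 5 were called lower in the change of vte2 minus vte1 (2 without it). The cause was not tested.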
